A study of Mus musculus with 20 samples.

Results

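Expression was examined of 10 transcription factor genes that act at successive steps in making midbrain dopaminergic neurons: Lmx1a, Lmx1b, Foxa1, Foxa2, Msx1, Otx2, En1, En2, Nr4a2 and Pitx3. They were selected by gene symbol, without using their values, and all 10 were found among the 37561 genes shared by the tables. The cells were mouse ESD3 embryonic stem cells of strain 129s2/SvPas, kept on mouse embryo fibroblast feeders and differentiated toward dopaminergic neurons as spherical neural masses (SNM), floating clumps of neural precursors. Control cells carried a short hairpin RNA against luciferase, and HPRT-knockdown cells carried one against HPRT, a purine salvage enzyme. RNA was collected from the first day (day 0) through day 4 each day and then on every even day up to day 14, with 1 library per line and day and 20 libraries in all. No second derivation of either line is described, and the study pooled RNA preparations of a day into 1 library. The days are therefore read as successive collections of the same pair of lines and not as independent cultures. An effect of HPRT loss cannot be told apart from other differences between the lines.

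Floor plate cells at the ventral midline of the embryonic midbrain receive Sonic hedgehog and switch on the forkhead factors Foxa1 and Foxa2 and the LIM homeodomain factors Lmx1a and Lmx1b. These factors, with Msx1, specify the dopaminergic progenitors of the midbrain floor plate. Otx2 sets forebrain and midbrain identity, and the engrailed genes En1 and En2 mark the midbrain and anterior hindbrain near the isthmic organizer. Nr4a2 (Nurr1) and Pitx3 come on later, in postmitotic neurons, where they turn on the dopamine synthesis and transport genes.

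The deposited values gave the log2 ratio of HPRT-knockdown to control cells within each day. Ratios below are means ± SD over 9 days, and day 6, which the study left out of its pathway analysis, is given separately. Of the genes, 13610 passed a filter on low values (normalized counts typically at 4 or more on the log2 scale), and these included 9 of the 10 members but not Pitx3. Read numbers per library were worked back from the deposited values for most members and divided by size factors between 0.823 and 1.60 to give normalized reads. Total reads per library were not used here, and read numbers carry counting error besides the values given. HPRT itself (Hprt) had between 516 and 877 normalized reads in the control libraries (median 664) and between 19.8 and 136 in the knockdown libraries (median 37.2), so the lines did not overlap. The control table that joins days 3 and 4 disagreed with the other tables. This touches the control values joined across days, used for the control time trend and the search for genes most like a member. The ratios within a day, the reads worked back and the knockdown time trend do not use that table.

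Of the 9 members past the filter, 5 differed between the lines by limma with Benjamini-Hochberg adjustment over all 13610 genes. The differences were widespread, since 52.5% of all genes passed the same test, 26.2% with higher and 26.3% with lower expression in HPRT-knockdown cells. Foxa1, Lmx1a, Msx1 and Foxa2 were higher, En2 was lower, and En1, Nr4a2, Otx2 and Lmx1b did not pass. For 4 members all 9 days had ratios of one sign, against 29.2% of all genes (14.1% above and 15.2% below 0). By the exact sign-flip permutation test over days, 5 members had an unadjusted two-sided p under 0.05, against 56.3% of all genes. In such bulk samples, more cells of a type and more RNA per cell cannot be told apart.

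The 4 members that were higher in HPRT-knockdown cells are shown by the 250 bases upstream of a RefSeq transcription start on mouse build GRCm38.p6, a later build than that of the reads, because these are the members called in the same direction. They lie at chr1:167689308-167689557 on the plus strand for Lmx1a and, on the minus strand, at chr12:57546112-57546361 for Foxa1, at chr2:148046970-148047219 for the most upstream of 3 starts of Foxa2 and at chr5:37824586-37824835 for Msx1. Capitals mark a match to a forkhead motif on the opposite strand.
Lmx1a: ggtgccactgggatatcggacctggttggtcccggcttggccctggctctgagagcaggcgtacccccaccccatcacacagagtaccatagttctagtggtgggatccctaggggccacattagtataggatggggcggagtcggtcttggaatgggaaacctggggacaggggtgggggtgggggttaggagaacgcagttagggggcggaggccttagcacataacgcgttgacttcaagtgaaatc
Foxa1: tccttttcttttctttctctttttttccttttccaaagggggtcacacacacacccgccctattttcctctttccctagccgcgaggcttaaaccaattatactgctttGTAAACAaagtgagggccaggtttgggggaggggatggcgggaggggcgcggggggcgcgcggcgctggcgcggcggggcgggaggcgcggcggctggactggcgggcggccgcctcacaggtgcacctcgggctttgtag
Foxa2: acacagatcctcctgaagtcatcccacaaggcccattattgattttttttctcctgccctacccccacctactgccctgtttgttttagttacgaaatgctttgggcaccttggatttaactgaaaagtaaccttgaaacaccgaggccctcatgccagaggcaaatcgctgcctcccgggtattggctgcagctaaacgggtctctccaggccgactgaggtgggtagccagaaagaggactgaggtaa
Msx1: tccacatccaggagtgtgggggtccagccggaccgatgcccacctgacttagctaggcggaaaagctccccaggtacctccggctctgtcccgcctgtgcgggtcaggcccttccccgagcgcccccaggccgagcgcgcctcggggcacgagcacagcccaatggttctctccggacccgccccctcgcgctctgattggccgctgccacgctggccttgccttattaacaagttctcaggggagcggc

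Both strands of each upstream stretch were searched for the forkhead motif TGTTTAC, the GLI motif TGGGTGGTC, the OTX motif TAATCC and the LIM homeodomain motif TTAATTA, with motifs allowed to overlap. They occurred in 3.16%, 0.225%, 6.25% and 2.78% of 32817 mouse promoters of that length, respectively. Among these 4 genes only the Foxa1 stretch held a match, a forkhead motif whose first base lies 141 bases upstream of the start. A match is a description of letters and not a binding site, and the absence of a match says nothing of the factors. RefSeq sequence was matched for 9 of the 10 members, and none was matched for En2.

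Foxa1 showed the largest difference among the members. This forkhead gene (gene ID 15375; chromosome 12, 58641618 to 58647108, minus strand, build NCBIM37, 2 exonic blocks) encodes a factor that opens chromatin in the floor plate and also acts in endoderm. In control cells it had between 76.3 normalized reads (day 1) and 146 (day 10), with a median of 103, and in HPRT-knockdown cells between 291 (day 1) and 1687 (day 4), with a median of 632. The lines did not overlap, and every knockdown library was above every control library. Reads were worked back only for members and listed genes. The share of all genes with separate ranges is therefore not known, here or for the genes below. The mean log2 ratio was 2.77 ± 0.75 (SD, n = 9 days), a 6.81-fold difference, higher on all 9 days, with a limma adjusted p of 3.43e-05 and a two-sided exact sign-flip permutation p of 0.00391, the smallest that 9 days allow. On day 6 the log2 ratio was 2.26. Mean ratios at least as high were seen for 51 genes, or 0.375% of those tested.

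Lmx1a, the LIM homeodomain factor that is most closely tied to dopaminergic floor plate progenitors (gene ID 110648; chromosome 1, 169619370 to 169778872, plus strand, 9 exonic blocks), was the other member with separate ranges. It had between 41.5 (day 1) and 97.9 (day 8) normalized reads in control cells, median 67.3, and between 148 (day 12) and 999 (day 4) in HPRT-knockdown cells, median 296. No control library reached the lowest knockdown library. Ranges of members were compared over all days only where reads were worked back for every library. Its mean log2 ratio was 2.32 ± 1.01 (n = 9 days), or 5.00-fold, with a limma adjusted p of 0.000284 and higher values on all 9 days. The daily log2 ratios ran from 1.17 on day 12 to 4.41 on day 4, and day 6 gave 2.16. Only 101 genes, or 0.742%, had a mean ratio at least as high.

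Foxa2, a direct target of Sonic hedgehog signalling that also supports dopaminergic neurons later in life (gene ID 15376; chromosome 2, 147868613 to 147872705, minus strand, 4 exonic blocks), was higher in HPRT-knockdown cells on 8 of 9 days. Its normalized reads were between 38.5 (day 14) and 134 (day 4) in control cells, median 77.3, and between 44.1 (day 1) and 730 (day 4) in HPRT-knockdown cells, median 168. The lines overlapped, because on day 1 the log2 ratio was -0.02 and on days 10 and 12 it was 0.19 and 0.28. Over days its mean log2 ratio was 1.24 ± 0.93 (n = 9 days), or 2.35-fold, with a limma adjusted p of 0.00481 and an exact sign-flip p of 0.00781. On day 6 the log2 ratio was 1.92.

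Msx1, a homeobox repressor that acts with Lmx1a in progenitors (gene ID 17701; chromosome 5, 38211724 to 38215822, minus strand, 2 exonic blocks), was lowest among the called members in reads. Control cells had between 10.0 (day 10) and 69.4 (day 0) normalized reads, median 31.2, and HPRT-knockdown cells between 38.2 (day 14) and 153 (day 0), median 55.3. The lines overlapped across the course, although the knockdown library was the higher one on each of the 9 days. The mean log2 ratio was 1.34 ± 1.00 (n = 9 days), or 2.54-fold, with a limma adjusted p of 0.00459. Daily log2 ratios fell into a low range of 0.42 to 1.15 on days 0 to 4 and 14 and a high range of 2.19 to 3.17 on days 8, 10 and 12, and day 6 gave 0.81.

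**Figure D1:**
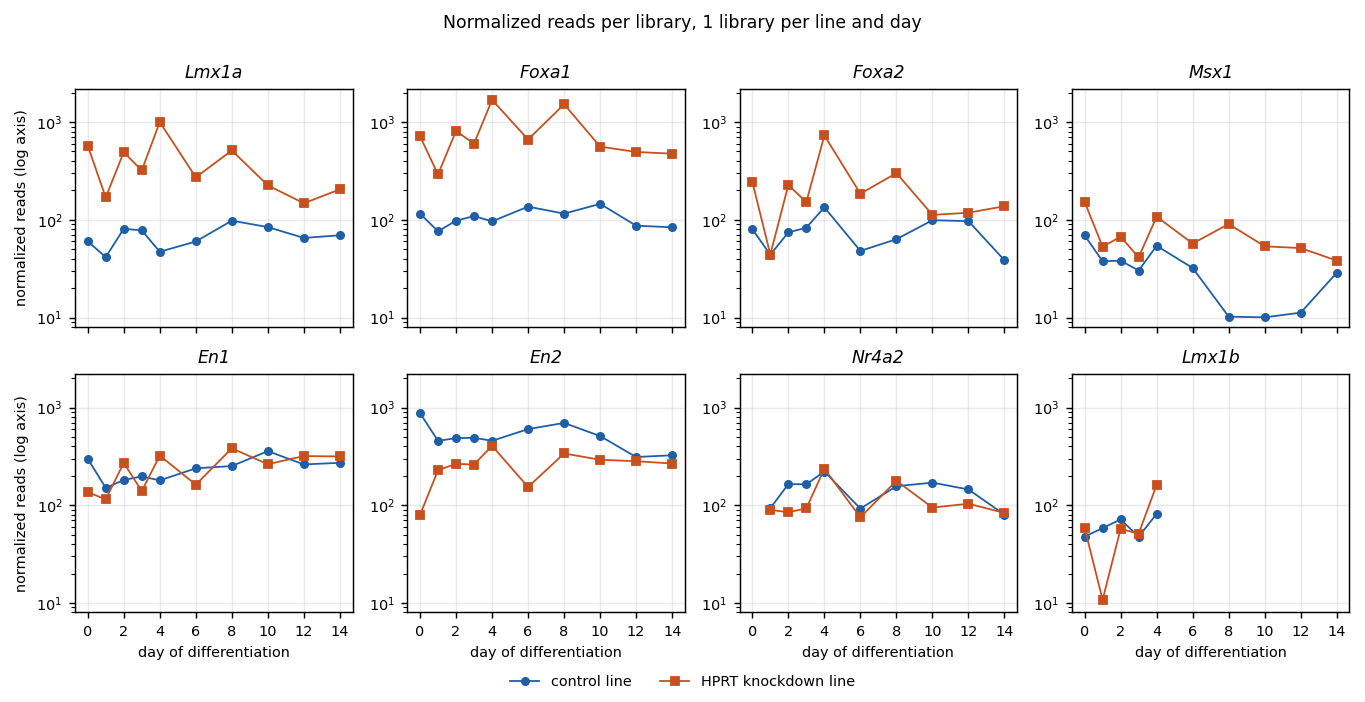
Normalized reads of 8 members (not Otx2 and Pitx3) on a log axis (vertical) against day of differentiation (horizontal), one panel per gene, with a point per library for control (blue circles) and HPRT-knockdown (orange squares) cells. The knockdown points of Foxa1 (lowest 291) and Lmx1a (lowest 148) lie above all control points of the same gene, and day 4 of the knockdown line holds their highest values, 1687 and 999.

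Of the engrailed genes, En2 was called lower and En1 was not called, though the difference between them was not tested. En2 (gene ID 13799; chromosome 5, 28492236 to 28500152, plus strand, 2 exonic blocks) had between 311 (day 12) and 876 (day 0) normalized reads in control cells, median 488, and between 79.4 (day 0) and 405 (day 4) in HPRT-knockdown cells, median 266. The lines overlapped across days, but the knockdown library was lower on all 9 days. Over days the log2 ratio averaged -0.96 ± 1.00 (n = 9 days), 51.4% of the control level, with a limma adjusted p of 0.0224. The daily log2 ratio was -3.45 on day 0 and between -1.02 and -0.15 on the other tested days, and -1.99 on day 6. Without day 0 the mean was -0.65.

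En1 (gene ID 13798; chromosome 1, 122498995 to 122505873, plus strand, 2 exonic blocks), which partly substitutes for En2 in midbrain development, had between 151 (day 1) and 358 (day 10) normalized reads in control cells, median 245, and between 115 (day 1) and 382 (day 8) in HPRT-knockdown cells, median 267. The lines overlapped, with the knockdown library higher on 5 of 9 days and lower on 4. Its log2 ratio averaged 0.01 ± 0.66 (n = 9 days), with a limma 95% interval from -0.44 to 0.46 and an adjusted p of 0.972, and its sign changed with the days used. On day 6 the log2 ratio was -0.58.

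Otx2 and Lmx1b carried the widest day to day differences among the members past the filter that were not called. For Otx2, the head homeobox gene (gene ID 18424; chromosome 14, 49277354 to 49287319, minus strand, 7 exonic blocks), read numbers could not be worked back, and its typical level was at least 8 on the log2 scale. Its daily log2 ratios were between -0.37 and 0.42 on days 0, 1, 2, 4 and 8, and lower, at -1.35, -1.74, -2.33 and -0.77, on days 3, 10, 12 and 14. Over days the mean was -0.67 ± 0.95 (n = 9 days), lower on 7 of 9 days, with a limma 95% interval from -1.31 to -0.03 and an adjusted p of 0.0731. On day 6 the ratio was -0.46.

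For Lmx1b, the paralog of Lmx1a that is also needed at the isthmic organizer and in serotonergic neurons (gene ID 16917; chromosome 2, 33416485 to 33496031, minus strand, 9 exonic blocks), tables that share libraries disagreed by up to 0.41 log2, so its ratios depend on the table used. Reads were worked back for days 0 to 4, with between 47.7 and 81.8 normalized reads in control cells (median 58.3) and between 10.8 (day 1) and 161 (day 4) in HPRT-knockdown cells (median 57.4). The control values lay inside the knockdown range. Days 1, 10 and 12 had log2 ratios of -2.46, -1.99 and -2.39, and day 4 had 0.98. Over days the mean was -0.75 ± 1.29 (n = 9 days), higher on 4 days and lower on 5, with a limma adjusted p of 0.129 and a 95% interval from -1.62 to 0.12. Day 6 gave 0.16.

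Of the factors of postmitotic dopaminergic neurons, Nr4a2 was not called and Pitx3 was under the filter. Nr4a2, an orphan nuclear receptor needed for the dopaminergic phenotype (gene ID 18227; chromosome 2, 56959241 to 56976414, minus strand, 10 exonic blocks), had between 80.1 (day 14) and 221 (day 4) normalized reads in control cells on days 1 to 14, median 156, and between 75.3 (day 6) and 236 (day 4) in HPRT-knockdown cells, median 93.0. The lines overlapped. The log2 ratio averaged -0.28 ± 0.50 (n = 9 days), lower on 5 of 9 days, with a limma adjusted p of 0.155 and a 95% interval from -0.63 to 0.07. Day 6 gave -0.32.

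Pitx3, the homeobox factor of substantia nigra neurons (gene ID 18742; chromosome 19, 46210175 to 46222865, minus strand, 5 exonic blocks), was close to the detection limit. In control cells 2, 2, 11, 23.8, at most 1.12, 30.7, 2, 1, 15 and 34 reads were counted on the 10 days in order, and in HPRT-knockdown cells 8, 3, 6.67, 2.37, 9, 1, 8, 1.90, at most 0.776 and 1. All control libraries above 9 reads fell on days 2, 3, 6, 12 and 14, and no knockdown library exceeded 9 reads. The mean log2 ratio was -0.35 ± 2.71 (n = 9 days) with an exact sign-flip p of 0.711, and day 6 gave -4.87, so no difference was detectable at this depth. The gene body overlaps that of Elovl3, though no exons do.

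**Figure D2:**
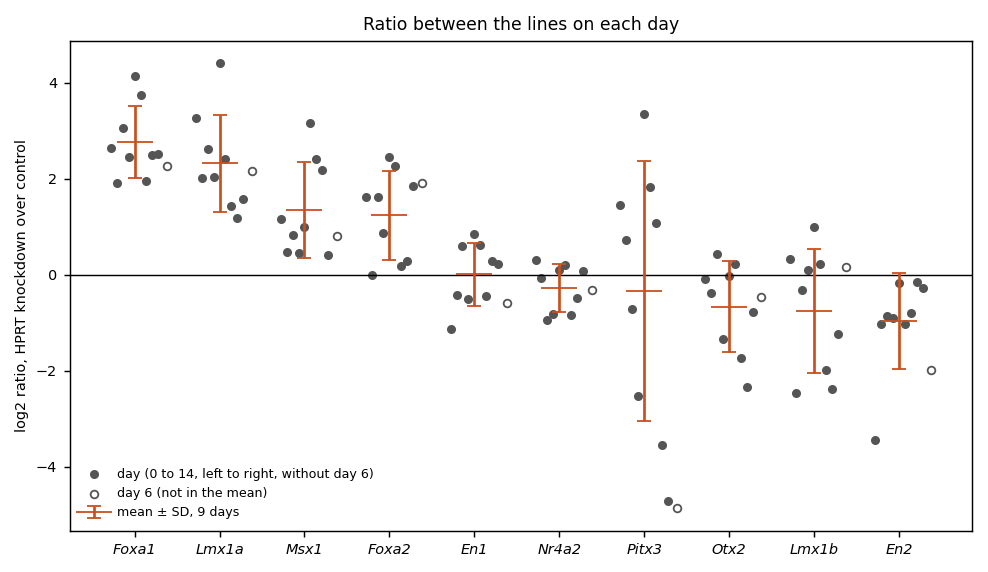
Log2 ratio of HPRT-knockdown to control cells (vertical) for each member (horizontal), with a point per day, day 6 as an open circle, and bars for the mean ± SD over 9 days. Foxa1 (mean 2.77) and Lmx1a (2.32) have no day at or below 0, while En1 (0.01) has points on both sides.

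Levels of different members were compared only as normalized reads per kilobase of exon. Otx2 is in neither order, because its reads were not worked back, and its place among the members is not known. In control cells the order by median was En2 (97.9), En1 (62.4), Nr4a2 (38.6), Foxa2 (32.6), Foxa1 (32.5), Lmx1a (19.8), Msx1 (16.1), Lmx1b (12.1) and Pitx3 (6.68). In HPRT-knockdown cells it was Foxa1 (198), Lmx1a (87.2), Foxa2 (71.0), En1 (68.1), En2 (53.5), Msx1 (28.6), Nr4a2 (22.9), Lmx1b (11.8) and Pitx3 (1.87). Neighbours in either order overlapped in their ranges over days, so single steps in the order lie within the spread between libraries. Among control medians Foxa1 and Foxa2 were nearly equal and Lmx1a was below both. In the knockdown line Foxa1 and Lmx1a had the highest medians of the members with reads worked back, which leaves out Otx2.

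**Figure D3:**
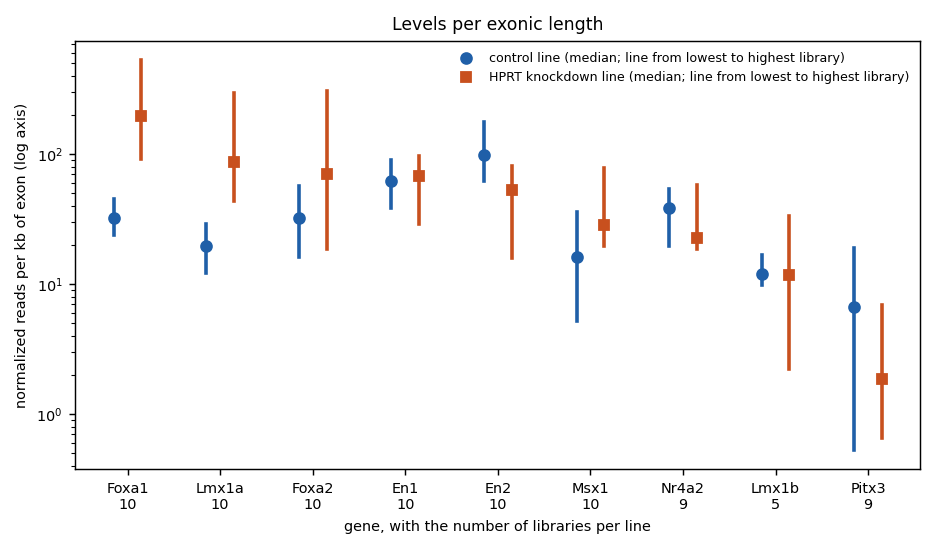
Median (symbol) and range over days (line) of normalized reads per kilobase of exon (vertical, log axis) for 9 members (horizontal, with the number of libraries under each name) in control (blue) and HPRT-knockdown (orange) cells. Foxa1 goes from 32.5 in control to 198 in knockdown cells, and En2 from 97.9 to 53.5.

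The gap between the lines was tested for a change over the course by a linear slope on day. No member had a slope that passed limma's adjusted threshold, against 14.1% of all genes (7.45% rising, 6.61% falling). Lmx1a had the most negative slope among the members, at -0.12 log2 per day with an adjusted p of 0.160, and that of En2 was 0.11 per day with an adjusted p of 0.173.

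Within the control line 3 members had a linear trend over days past the threshold, against 43.6% of all genes (19.7% rising, 23.9% falling). Msx1 fell by 0.17 log2 per day (limma adjusted p = 0.0225), Otx2 fell by 0.08 per day (adjusted p = 0.0470) and En1 rose by 0.07 per day (adjusted p = 0.0465). The call for En1 held only when day 0 was the day left out, that for Otx2 only without day 1 or day 12, and that for Msx1 was lost without day 0 or day 12. With the doubtful step from day 3 to day 4 taken through the knockdown line, only Msx1 was called. Within the knockdown line Otx2 alone had a trend past the threshold, at -0.18 log2 per day (adjusted p = 0.0467), against 13.1% of all genes (7.6% rising, 5.51% falling), and its call held only when day 1 or day 8 was the day left out. Relative to control day 0, the joined log2 values of Otx2 in HPRT-knockdown cells were 0.41 on day 4 and, on days 10, 12 and 14, -2.21, -2.61 and -2.27. Control cells were at -1.62 on day 14.

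Members were also compared by their levels over the libraries of a line. Across the 10 knockdown libraries the log2 normalized reads of Foxa1 and Foxa2 had a Pearson r of 0.94, those of Lmx1a and Foxa2 one of 0.89 and those of Lmx1a and Foxa1 one of 0.87. Without day 4 these were 0.91, 0.81 and 0.79. In the 10 control libraries, where the range of each gene was narrower, the same pairs had r of 0.25, 0.07 and 0.49, and of 0.40, 0.45 and 0.48 without day 4. High values were not particular to these pairs, since over the 9 libraries with Nr4a2 reads its r was 0.80 with Foxa1, 0.83 with Msx1 and 0.81 with En2 in knockdown cells (0.66, 0.67 and 0.69 without day 4), and 0.93 with Foxa2 in control cells. All are descriptions, the points share the libraries and their size factors, and the difference between the lines was not tested.

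Over the 20 joined library values of both lines, the genes most like Lmx1a were Slit2 (r = 0.97), Foxa1 (0.96) and Vtn (0.96). Those most like Foxa2 were Col22a1 (0.93), Cmtm8 (0.93) and Corin (0.90), and those most like En1 were Emcn (0.83), Mmp11 (0.82) and Hpse (0.81). When the control step from day 3 to day 4 was taken through the knockdown line, the genes named for Lmx1a and Foxa2 remained and for En1 Ing4 took the place of Emcn. These values hold the difference between the lines as well as the time course.

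Of 30 other genes of midbrain and floor plate patterning, 25 passed the filter, of which 12 were higher in HPRT-knockdown cells, 7 were lower and 6 did not pass limma's threshold. Their median log2 ratio was 0.67, against 0.01 over all genes. Among those higher were Shh, the ventral midline signal itself, at 3.59 ± 1.68 (n = 9 days, limma adjusted p = 0.000393), its target Nkx2-2 at 3.42 ± 1.88 (adjusted p = 0.000875) and Sox6, a factor of ventral midbrain progenitors, at 2.74 ± 1.42 (adjusted p = 0.000646). All 3 were higher on each of the 9 days. Other Sonic hedgehog pathway genes of the list did not share one direction. Gli2 (-1.40 ± 0.65, limma adjusted p = 0.000416) and Gli3 (-1.20 ± 0.52, adjusted p = 0.000317) were lower on all 9 days. Ptch1 was higher (0.76 ± 0.59, adjusted p = 0.00593), and Gli1 (-0.68 ± 1.22) and Smo (-0.10 ± 0.20) were not called. Corin, a surface protease used as a floor plate marker, had between 20.2 and 107 normalized reads in control cells (median 51.6) and between 46.1 and 1079 in HPRT-knockdown cells (median 212), and its mean log2 ratio was 2.53 ± 1.27. Slit2, an axon guidance ligand made by midline cells, had a mean log2 ratio of 2.00 ± 1.01.

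Genes of the isthmic organizer and of the neurogenic step made up the named genes that were lower. Fgf17, an organizer growth factor, had a log2 ratio of -3.11 ± 1.02 (n = 9 days, limma adjusted p = 7.82e-05), and Pax8, a paired box gene of the same boundary region, one of -2.76 ± 2.23 (adjusted p = 0.00653). Wnt1, a ligand of the midbrain border and of dopaminergic progenitors, was at -1.56 ± 0.93 (adjusted p = 0.00143), and the proneural gene Neurog2 at -1.56 ± 1.62 (adjusted p = 0.0216). Fgf17 and Pax8 were lower on all 9 days, Wnt1 on 8 and Neurog2 on 7. Fgf8, Wnt3a, Pax2, Pax5 and Ferd3l were under the filter.

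Of 24 genes used by dopaminergic neurons, 18 passed the filter, of which 3 were higher, 8 were lower and 7 did not pass the test, with a median log2 ratio of -0.23. Th, the rate-limiting enzyme of dopamine synthesis, had between 2.64 and 85.2 normalized reads in control cells and between 3.12 and 56.6 in HPRT-knockdown cells, overlapping, with a log2 ratio of -0.01 ± 1.74 (n = 9 days, limma adjusted p = 0.991). Higher were Aldh1a1, an aldehyde dehydrogenase of ventral nigral neurons, at 1.49 ± 1.29 (adjusted p = 0.00914), the adhesion gene Nrcam at 0.93 ± 0.27 (adjusted p = 8.34e-05) and the vesicular monoamine transporter Slc18a2 at 0.57 ± 0.68 (adjusted p = 0.0416). Lower were the neuronal differentiation factors Ebf1 (-2.43 ± 0.90), Ebf3 (-2.32 ± 1.03) and Ebf2 (-2.31 ± 1.00) and the synuclein gene Sncg (-1.69 ± 1.60). The dopamine transporter gene Slc6a3, under the filter, had at most 3 reads in any control library and between 2 and 38 in the knockdown libraries.

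Among 26 paralogs of the members, 18 passed the filter, of which 2 were higher, 4 were lower and 12 did not pass. The LIM homeobox genes Lhx1 (-3.33 ± 1.36), Lhx5 (-2.66 ± 2.56) and Lhx9 (-2.13 ± 0.75), which mark other brain regions, were lower by limma with adjusted p of 0.000201, 0.0151 and 0.000115, and the FoxO gene Foxo1 was at -0.51 ± 0.35. Higher were Nr4a3, the relative of Nr4a2, at 0.52 ± 0.58 and Foxo3 at 0.24 ± 0.15. Otx1, the paralog of Otx2, was at 0.85 ± 1.12 with an adjusted p of 0.0562. The third FoxA gene, Foxa3, which marks endoderm rather than floor plate, had between 2.39 and 13.1 normalized reads in control libraries and at most 6.88 in knockdown libraries.

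Foxa1 and Foxa2 are also endoderm genes, so endoderm markers were read beside them. Of 14, 5 passed the filter, of which Rbp4 was higher (0.73 ± 0.70, limma adjusted p = 0.0174), Sox17 was lower (-1.89 ± 2.40, adjusted p = 0.0482) and Gata4, Amn and Gata6 did not pass. The summed level of the 4 markers with reads in every library ran from 127 to 452 normalized reads in control cells (median 182) and from 74.3 to 574 in HPRT-knockdown cells (median 120). Afp, a defining marker of visceral endoderm, had at most 1.31 reads in any control library, and in knockdown cells 16 reads on day 0 and at most 4 on other days. Ttr, also a product of choroid plexus, reached 1805 normalized reads in the knockdown library of day 1 and at most 39.9 in any other library.

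Undifferentiated and feeder cells were read in the same way. Of 18 pluripotency genes 17 were lower and 1 was higher, with a median log2 ratio of -2.55, and of 8 epiblast genes past the filter, out of 9, 5 were lower, 1 was higher and 2 did not pass. The higher one was T (brachyury), a gene of early mesoderm and of the notochord, which also expresses Foxa2 and Shh. T had between 15 and 308 normalized reads in control cells (median 216) and between 741 and 3417 in HPRT-knockdown cells (median 1343), so the lines did not overlap, and its mean log2 ratio was 3.48 ± 1.13 (n = 9 days, limma adjusted p = 7.35e-05), higher on all 9 days. Of 14 feeder fibroblast genes 3 were lower, 1 was higher and 10 did not pass. The summed level of 6 of these fibroblast genes was between 1578 and 13734 normalized reads in control cells and between 2865 and 8333 in HPRT-knockdown cells. The part of these cell types in the members' differences was not tested.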

How the data were processed

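RNA of 20 mouse libraries (10 control, 10 HPRT-knockdown) was measured. Per the study's methods, the authors aligned 50-base HiSeq reads to mouse NCBI37/mm9 with ELAND in CASAVA 1.8.2, and took gene counts from Avadis NGS, scaled as in DESeq. The authors deposited log2 normalized counts in 28 tables of 2 libraries each, minus the mean of the pair. Tables were normalized separately, and counts at or below 1 stand as log2 0, so ratios of low genes are too small. Other units had been planned for, so no pseudocount entered the ratios.

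Groups came from the sample labels. The lines were collected on the same days, which pairs their libraries. Differences, slopes and trends were tested with limma 3.58.1 in R 4.3.3 on 13610 genes past a typical log2 normalized count of 4, with p-values adjusted by Benjamini-Hochberg at 0.05, and single members with a two-sided exact sign-flip permutation test over 9 days. Because size factors of a pair multiply to 1, reads were recovered in steps of 1/49 of a read by a search checked on simulated reads, and the other scripts were tested on simulated data. Python 3.11.15, numpy 2.4.6, pandas 2.3.3, scipy 1.17.1 and matplotlib 3.10.9 were used. Values lay on these steps in 18 of 20 libraries for En1 and 10 for Msx1, and the others follow from the ratios. Libraries were indexed and spread over several lanes of a flow cell. Which library ran in which lane is not stated, so lanes could not be compared. The TruSeq RNA kit does not mark strand, and antisense reads cannot be told apart. Total depth per library was not used here. Named genes were all members, up to 4 called genes per list and direction with the largest mean ratio, and the 3 genes most like Lmx1a, Foxa2 and En1. Some genes of the lists are counted but not reported here by name. Others named were chosen after their values were seen. The members and all lists were chosen with earlier results of these data known.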

Additional observations from a re-analysis of the deposited data

Results flagged for a closer look

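In a check of 28 groups of member values for a sample far from the others, 2 stood out, and chance alone gives such a result in about 1 group in 20. Both were the HPRT-knockdown library of day 4. Lmx1a had 999.5 normalized reads there, and its gap to the next library was 0.5 of the range over the 10 knockdown libraries. Foxa2 had 729.6, with a gap of 0.626 of the range. Without day 4 the mean log2 ratios were 2.06 for Lmx1a and 1.08 for Foxa2, and both still passed limma's threshold after Benjamini-Hochberg adjustment.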

How the results depend on the processing

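The limits are few replicates, in that 9 days of 1 pair of lines stand in for cultures, tables normalized one by one, and reads near the detection limit for Pitx3 and Th. The calls for Foxa1, Lmx1a, Foxa2, Msx1 and En2 held under each alternative setting in which they were tested and whichever day was left out. Leaving out 1 day gave 6256 to 7266 genes called and 5 to 6 members, the sixth being Otx2 without day 2 (-0.81, limma adjusted p = 0.0454), and 5 to 6 members by the exact sign-flip test. Without the pairing by day (no replicate block) 5832 genes and 5 members were called on the joined tables, against 7266 and 5 on the same tables with it and 7141 and 5 as reported, and no member's call changed. At a typical log2 count of at least 8, only 2 members were tested and 1 (En2) was called. The ratio of En1, 0.01 as reported, was -0.050 with day 6 kept, -0.12 for joined tables with or without the replicate block, and between -0.095 and 0.15 with 1 day left out. For the slope of the ratio, 1914 genes were called, 1066 with day 6 kept and 609 (without day 12) to 1662 (without day 8) with 1 day left out. For the control trend, 5937 genes were called, 3931 on log2(day + 1), and 4619 to 6270 with 1 day left out. Of the 3 members called, 1 was called without a filter, 1 at a log2 count of 8 and 1 on log2(day + 1). Through the knockdown line (chosen after seeing the data) 1 was called. With 1 day left out, 1 to 3 members were called. The 3 called without day 1 were Msx1, Otx2 and Nr4a2 (-0.063 log2 per day, limma adjusted p = 0.0413), and En1 was not called there. For the knockdown trend, 1784 genes were called, 128 on log2(day + 1), and 170 (without day 14) to 2963 (without day 0) with 1 day left out; its 1 member was not called without a filter (0) or on log2(day + 1) (0), and 0 to 1 were called with 1 day left out. A pseudocount of 1 on recovered reads changed no direction among the 9 members with such reads. Values near 0 changed sign. With 1 day left out the slope of the ratio ran from -0.043 to 0.0037 for Foxa1, -0.054 to 0.027 for Foxa2 and -0.028 to 0.019 for Nr4a2, the control trend from -0.016 to 0.013 for Foxa1 and -0.047 to 0.030 for Foxa2, and the knockdown trend from -0.058 to 0.0092 for Foxa1. On log2(day + 1) Foxa1 had a slope of 0.029 and a knockdown trend of 0.027, and its control trend through the knockdown line was 0.0022. The causes were not tested.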

Other observations

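Markers of brain regions other than the midbrain also differed between the lines. Of 12 forebrain genes, 9 passed the filter, of which 8 were higher in HPRT-knockdown cells, with a median log2 ratio of 1.68 against 0.01 over all genes. Nkx2-1, a ventral forebrain factor that responds to Sonic hedgehog, had the largest ratio of the list at 5.25 ± 2.37 (SD, n = 9 days, limma adjusted p = 0.000320). The eye field genes Six3 (2.63 ± 1.10) and Six6 (2.28 ± 1.22) and the interneuron factor Dlx1 (1.88 ± 1.19) were also higher. Of 15 hindbrain and spinal cord genes 14 passed the filter, and 7 were lower, none was higher and 7 did not pass.

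Of 14 glial and myelin genes 13 passed the filter, of which 8 were higher, none was lower and 5 did not pass, with a median log2 ratio of 2.19. Of 14 general neuron genes 12 passed the filter, of which 8 were lower, 1 was higher and 3 did not pass, with a median of -1.55. The summed level of 10 glial genes was between 2971 and 12443 normalized reads in control cells and between 9707 and 77876 in HPRT-knockdown cells, so the lines overlapped.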
